A study of Mus musculus with 6 samples.

Results

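Complexes III, IV and V are the last proton-moving machines of oxidative phosphorylation, and the genes described here are the nuclear genes whose symbols begin with Uqcr, Cox4 to Cox8, Cox10 to Cox20 or Atp5, together with cytochrome c1 (Cyc1) and cytochrome c (Cycs), leaving out pseudogene names. The names matched 57 entries of the table, of which 6 were at 0 in all 6 libraries (Cox6c2, Cox7b2, Cox8b, Cox8c, Cox20b and a second Atp5o entry) and 51 passed the filter of a mean of at least 10, out of 13180 genes tested. The members nearest to that limit were Cox7a1 (mean 18.1) and Cox4i2 (mean 23.7), and no entry lay between 0 and the limit. The cells were splenic CD4+ T cells of naive wild-type C57BL/6 mice, labelled with the division dye CFSE and cultured for 48 h with either 5 mM itaconate (3 libraries) or 5 mM NaCl (3 libraries). Antibodies against CD3 and CD28 and 200 U IL-2 were present in both groups. The table marks the control columns with the letters NAC. They were taken to mean NaCl, the only treatment in the labels besides itaconate, although no source explains them and N-acetylcysteine is another possible reading. The labels do not state separate mice or cultures for the replicates, and they give neither age nor sex, so the p-values cover only the variation among these 6 libraries, which may be technical.

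In the inner mitochondrial membrane, complex III passes electrons from ubiquinol to cytochrome c, and complex IV (cytochrome c oxidase) passes them from cytochrome c to oxygen. Both pump protons, and complex V (ATP synthase) lets the protons flow back to make ATP. Each complex joins subunits encoded in the nucleus to a few encoded in mitochondrial DNA, and stimulated T cells enlarge this machinery as they grow and divide. Itaconate, made by activated macrophages, is a known competitive inhibitor of succinate dehydrogenase (complex II), which lies upstream of complex III.

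Estimated reads per library ran from 20074299 to 22755248 in the itaconate group and from 21015690 to 24144999 in the NaCl group. The 6 T cell genes listed for these cells (Cd3e, Cd3d, Cd3g, Cd4, Trac and Thy1) were all measured. Their normalized counts summed to 40003 to 41557 in the itaconate libraries and 35653 to 41004 in the NaCl libraries. Markers of other cells were low: the 2 CD8 genes summed to 308 to 365 and 363 to 408, the 5 B cell genes to 173 to 303 and 224 to 304, and the 4 dendritic cell genes to 20.6 to 55.9 and 24.5 to 48.2. The 7 myeloid genes summed to 46.7 to 81.9 with itaconate and 7.03 to 27.0 with NaCl, with S100a8 and S100a9 at 0, and the 3 natural killer cell genes to 202 to 236 and 95.4 to 129.5. Most of the myeloid sum was Itgam (means of 59.0 with itaconate and 14.3 with NaCl), and the other myeloid genes had means of 3.53 or less. Nearly all of the natural killer sum was Eomes (214 and 111), with Ncr1 at 0 and 0.68 and Klrb1c at 0.68 and 0.30. Of these marker genes, Cd3e (0.35), Cd4 (0.51), Itgam (2.10) and Eomes (0.95) rose and Cd3g (-0.44) and Thy1 (-0.36) fell (log2 fold changes in parentheses). The part of these cells in the results was not tested. In bulk RNA, fewer cells of a type and less RNA per cell cannot be told apart.

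For most of the 51 genes the difference between the groups did not pass, and the few that passed moved in both directions. In the test of all genes, 4 members rose with itaconate (Uqcrh, Cox6c, Cox7a2l and Atp5h), 6 fell (Uqcrq, Cox7a1, Cox6a2, Cox16, Cox20 and Atp5g1) and 41 did not pass. These 10 calls were 19.6% of the members, where 36.0% of all tested genes were called (18.2% rose and 17.8% fell). Cox7a1 passed the filter only through the NaCl group (mean 28.8, against 7.44 with itaconate), so it had to differ, and without it 9 of 50 members were called (18%), 5 of them lower. The median log2 fold change was 0.047 over the members, of which 34 were positive, and -0.00088 over all tested genes. Leaving out 1 library moved the members' median from -0.0045 (without NaCl replicate 2) to 0.085 (without NaCl replicate 3). A log2 fold change below 0.25 in size, a limit chosen after the values were seen, was found for 36 members (70.6%) and for 40.3% of all tested genes. The members' median standard error was 0.11, against 0.14 over all tested genes. The 3 itaconate libraries lay entirely above or below the 3 NaCl libraries for 16 members (8 above, 8 below, 31.4%), where 48.4% of all tested genes did so (24.2% above and 24.2% below). The normalized counts of the members summed to 137307 ± 6499 (SD, n = 3) with itaconate and 135146 ± 7226 with NaCl, a difference smaller than the spread between replicates. When trends of the fold change with GC content and transcript length over all genes were removed, 11 members rose in place of 4, and their median log2 fold change was 0.13. Without itaconate replicate 3, 7 members rose, and without itaconate replicate 2 or NaCl replicate 2, 2 did. Without NaCl replicate 1, 3 members fell, and without NaCl replicate 3, 2 did.

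**Figure D1:**
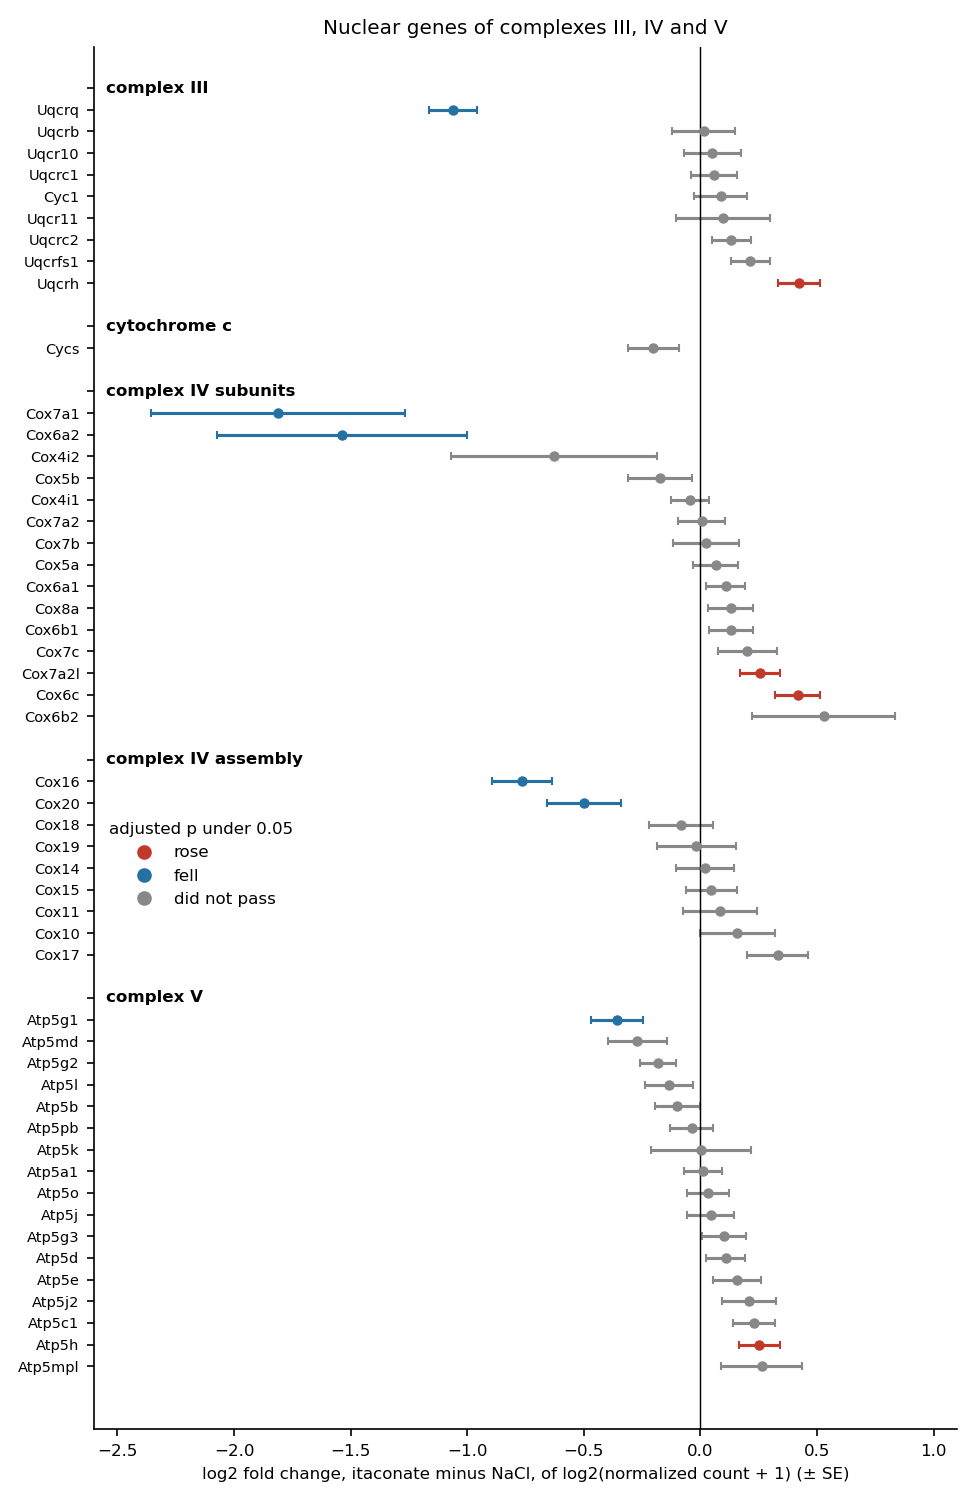
Log2 fold change (itaconate against NaCl) of each of the 51 members with its standard error, grouped by complex, in red (rose) or blue (fell) for the 10 genes that passed the test and grey for the rest. Most marks lie within 0.25 of 0, and Cox7a1, Cox6a2 and Uqcrq lie farthest below it.

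Nuclear genes of this machinery are known as targets of the transcription factors NRF1 and GABP, an ETS family factor, and some respond to the hypoxia-inducible factor HIF. RefSeq promoters (GRCm38.p6, 250 bases before to 50 after the start) were matched for 39 of the 51 members. On both strands, the ETS motif CCGGAAG was found in 16 of them (41.0%), against 8.86% of all 32851 promoters in the table. The NRF1 motif (GCGCA, any 1 base, then GCGC) was found in 8 (20.5%), against 4.60%, and the HIF core ACGTG in 11 (28.2%), against 19.6%. Counted per gene, because some genes have several promoters, the shares of all 27025 genes were 9.93%, 5.19% and 21.8%. Of the 8 members with the NRF1 motif, 6 were complex V genes (6 of 15 matched). The ETS motif was in 5 of 7 assembly genes of complex IV and 3 of 11 of its subunits. A match describes letters only. Among the members that passed, Uqcrq, Cox6c and Cox6a2 had no promoter matched, and Cox7a2l held none of these motifs. Cox20 held the ETS motif and Cox7a1 the HIF core. The 250 bases before the start are shown for the other 4 genes that passed, all with a match, 2 that rose and 2 that fell. They run 5′ to 3′ on the gene's strand, with matches in capitals (CTTCCGG is the ETS motif on the other strand). All 4 genes lie on the minus strand: Uqcrh chr4:116075071-116075320, Atp5h chr11:115419920-115420169, Cox16 chr12:81485138-81485387 and Atp5g1 chr11:96075632-96075881.
Uqcrh: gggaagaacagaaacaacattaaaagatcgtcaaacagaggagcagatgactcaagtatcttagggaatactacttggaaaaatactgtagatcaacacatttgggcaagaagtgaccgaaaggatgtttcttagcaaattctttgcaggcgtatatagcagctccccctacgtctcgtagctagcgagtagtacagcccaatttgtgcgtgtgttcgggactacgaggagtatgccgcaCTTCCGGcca
Atp5h: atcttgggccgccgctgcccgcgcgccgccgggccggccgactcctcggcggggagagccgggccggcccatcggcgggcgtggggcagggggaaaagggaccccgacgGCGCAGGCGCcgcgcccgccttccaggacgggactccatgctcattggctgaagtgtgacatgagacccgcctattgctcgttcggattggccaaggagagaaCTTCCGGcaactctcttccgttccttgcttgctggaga
Cox16: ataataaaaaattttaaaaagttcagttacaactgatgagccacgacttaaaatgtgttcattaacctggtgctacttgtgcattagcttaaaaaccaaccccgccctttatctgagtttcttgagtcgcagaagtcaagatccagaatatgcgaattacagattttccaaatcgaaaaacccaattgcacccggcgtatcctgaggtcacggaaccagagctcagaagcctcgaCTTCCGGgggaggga
Atp5g1: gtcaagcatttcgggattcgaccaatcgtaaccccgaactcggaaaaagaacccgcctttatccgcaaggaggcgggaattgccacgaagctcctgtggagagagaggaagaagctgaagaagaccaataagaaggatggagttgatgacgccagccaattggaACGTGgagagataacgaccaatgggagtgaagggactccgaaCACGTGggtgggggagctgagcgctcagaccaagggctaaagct
The ETS match of Uqcrh, which rose, began 10 bases before the start, and that of Cox16, which fell, 15 bases before the start. Whether a motif or its place bears on the direction of change was not tested. Atp5h held the NRF1 motif 141 bases and the ETS motif 38 bases before its start. In Atp5g1 the core ACGTG matched 86 bases before the start and on both strands of the palindrome CACGTG, which began 44 bases before it. For Cox16 the table holds a second, overlapping promoter with its start farther downstream. That promoter also held an ETS match, and the HIF core 179 bases before its start.

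Among the 9 genes of complex III, the hinge subunit gene Uqcrh rose, the small subunit gene Uqcrq fell, and 7 did not pass. The groups did not overlap for 4 of the 9 (3 above, 1 below), and the median log2 fold change was 0.086. Over all tested genes, 36.0% were called and the groups did not overlap for 48.4%. Uqcrq (chr11:53427922-53430831, minus strand) encodes a small subunit that binds cytochrome b, the mitochondrially encoded core of the complex. Its normalized counts were 1718, 1661 and 1598 in the itaconate libraries and 3596, 3004 and 3846 in the NaCl libraries. Every itaconate value was below every NaCl value, and the means were 1659 ± 60.1 and 3482 ± 433 (SD, n = 3), a level 2.09-fold lower (adjusted p = 1.21e-05, log2 fold change -1.06 with an SE of 0.10). Uqcrh (chr4:116066965-116075071, minus strand) encodes the acidic hinge protein that helps dock cytochrome c to cytochrome c1. Its normalized counts were 3186, 3555 and 3107 with itaconate and 2374, 2339 and 2633 with NaCl. All itaconate values were the higher ones, with means of 3283 ± 239.5 and 2449 ± 161 (SD, n = 3; adjusted p = 0.00328, log2 fold change 0.42 with an SE of 0.091). Both calls held in all 18 alternative analyses.

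The redox and core genes of complex III did not pass. Uqcrfs1, the Rieske iron-sulfur protein and the member of the complex with the largest normalized count, had values of 3899, 4069.9 and 4086 with itaconate and 3441, 3258 and 3714 with NaCl. The groups did not overlap, but the difference did not pass the test (adjusted p = 0.0648, log2 fold change 0.21 with an SE of 0.084). The core protein gene Uqcrc2 also lay above NaCl in every itaconate library without passing (log2 fold change 0.13, adjusted p = 0.239). For the other core protein Uqcrc1, cytochrome c1 (Cyc1) and the small subunits Uqcr10, Uqcr11 and Uqcrb, log2 fold changes ran from 0.015 (Uqcrb) to 0.096 (Uqcr11). Uqcrfs1 passed when the GC and length trends were removed (adjusted p = 0.00786), as did Uqcrc2 (0.0454).

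Cytochrome c, the soluble carrier between complexes III and IV and a trigger of apoptosis when released, did not pass. Cycs had normalized counts of 1827, 1839 and 1811 with itaconate and 2499.9, 1929.8 and 1918 with NaCl (adjusted p = 0.171, log2 fold change -0.20 with an SE of 0.11). The itaconate libraries were all lower, by little for 2 of the NaCl libraries, and NaCl replicate 1 was highest. Cycs shares 28.6% of its 31-base sequences with Gm10053, and with both summed the log2 fold change was -0.21 (adjusted p = 0.125).

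**Figure D2:**
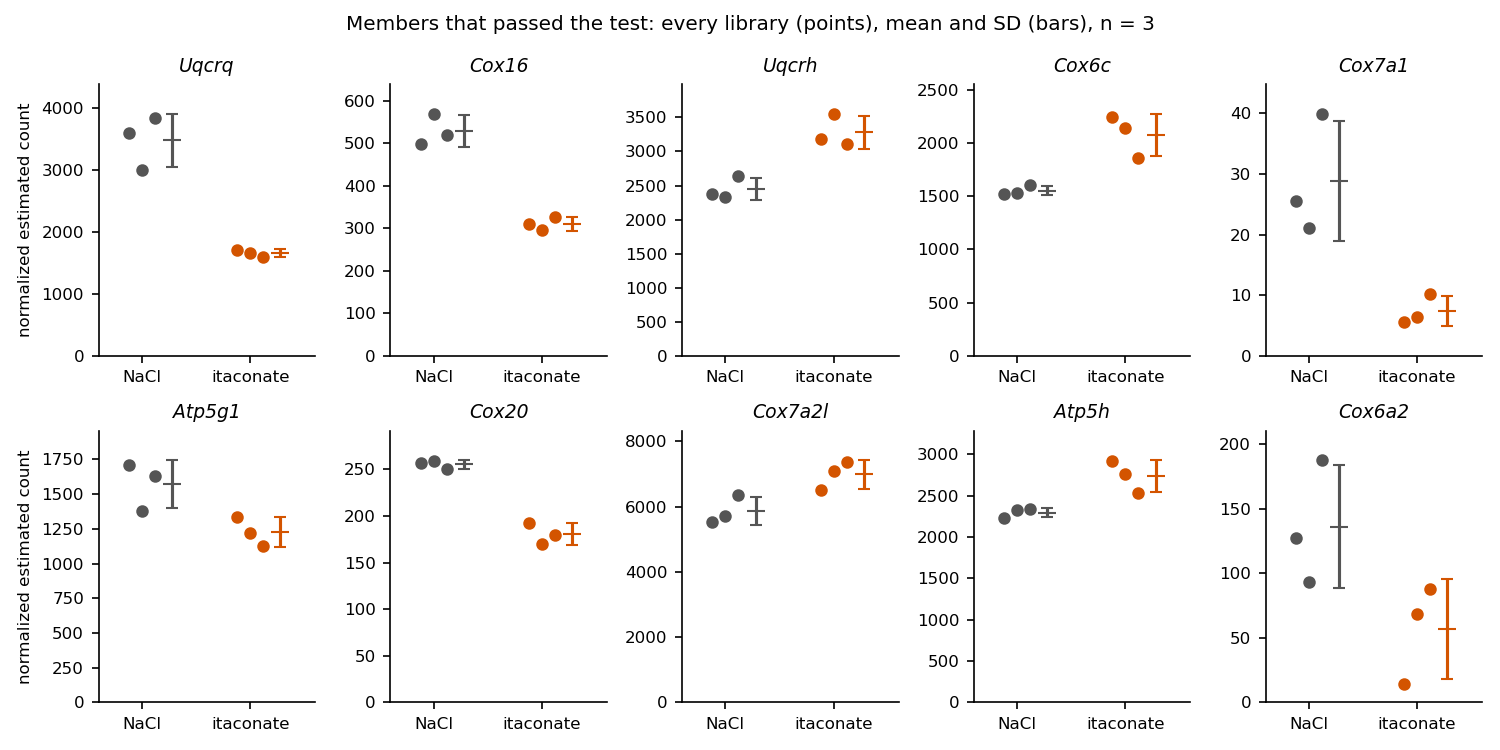
Normalized count in each library (points) for the 10 members that passed the test, 1 panel per gene with its own axis from 0, with the mean and SD of each group beside the points. The 3 itaconate values of Uqcrq lie between 1598 and 1718, below the NaCl values of 3004 to 3846, while Cox7a1 and Cox6a2 sit far lower than the other genes.

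Of the 15 subunit genes of complex IV, Cox6c and Cox7a2l rose, the muscle-type isoform genes Cox7a1 and Cox6a2 fell, and 11 did not pass. The groups did not overlap for 6 (4 above, 2 below), and the median log2 fold change was 0.066. Over all tested genes, 36.0% were called and the groups did not overlap for 48.4%. Cox6c (chr15:35925886-35938246, minus strand), a small nuclear subunit with no muscle isoform, had normalized counts of 2241, 2136 and 1859 with itaconate and 1522, 1534 and 1604 with NaCl. Each itaconate library exceeded each NaCl library, with means of 2079 ± 198 and 1553 ± 44.6 (SD, n = 3; adjusted p = 0.00513, log2 fold change 0.42 with an SE of 0.097), and the call held in all 18 alternatives. Exons of the opposite-strand gene Vps13b overlap 7.01% of the exons of Cox6c. The strand setting of the counting is not given in the sources used here, so reads from overlapping genes on opposite strands cannot be told apart.

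Cox7a2l (chr17:83501918-83517330, minus strand), a factor of supercomplexes of complexes III and IV, had the largest normalized count of the complex IV subunit genes and also rose. C57BL/6 mice are known to carry a shortened form of this protein, reported to be impaired in that role. Its values were 6507, 7100.1 and 7356 with itaconate and 5523, 5698 and 6355 with NaCl, with no overlap (adjusted p = 0.0374, log2 fold change 0.25 with an SE of 0.087). The rise was 1.19-fold, and its call was lost without itaconate replicate 2 (adjusted p = 0.117) or 3 (0.0925), without NaCl replicate 1 (0.116) or 2 (0.113), with no filter (0.0651) and with no intensity trend (0.113).

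Cox7a1 and Cox6a2, isoforms best known from heart and skeletal muscle, were near the bottom of the measured range. Cox7a1 (chr7:30184144-30186078, plus strand) had normalized counts of 5.61, 6.44 and 10.3 with itaconate and 25.5, 21.1 and 39.9 with NaCl (log2 fold change -1.81 with an SE of 0.54). No itaconate value reached a NaCl value. The itaconate mean of 7.44 lies under the filter, so these values are a description, and the call was lost without NaCl replicate 3, the highest library (adjusted p = 0.107). Cox6a2 (chr7:128205435-128206387, minus strand) had 14.0, 68.7 and 88.3 with itaconate and 127, 93.4 and 188 with NaCl (adjusted p = 0.0404, log2 fold change -1.54 with an SE of 0.54). The groups were apart by a small margin, with itaconate replicate 1 far below the other two, and without that library the log2 fold change was -0.74 (adjusted p = 0.087). The call was also lost without NaCl replicate 1 (0.0801), 2 (0.0605) or 3 (0.154), with no filter (0.069), quantile normalization (0.0525), no intensity trend (0.158), robust variances (0.114) and the GC and length trends removed (0.0545). The muscle genes Ckm and Acta1, measured as a check, together summed to 0 to 5.37 with itaconate and 3.06 to 13.1 with NaCl, and neither reached the filter.

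Other isoforms of the complex IV subunits did not pass. The ubiquitous Cox4i1 had 5782, 5681 and 5689 with itaconate and 5837, 5533 and 6333 with NaCl, overlapping ranges (log2 fold change -0.043). Its lung-type and hypoxia-linked counterpart Cox4i2 had 23.4, 16.1 and 15.4 and 37.7, 22.1 and 27.2 (log2 fold change -0.63, adjusted p = 0.291), and the testis-type Cox6b2 had 66.4, 102 and 88.3 and 40.8, 62.3 and 77.2 (log2 fold change 0.53, adjusted p = 0.2). In both, the groups overlapped. Cox6a1 and Cox6b1 lay above NaCl in every itaconate library without passing (log2 fold changes 0.11 and 0.13). The remaining subunits, Cox5a, Cox5b, Cox7a2, Cox7b, Cox7c and Cox8a, had log2 fold changes from -0.17 (Cox5b) to 0.20 (Cox7c). Cox7c passed without itaconate replicate 3, its lowest itaconate library (0.00652), and Cox7c (0.0408) and Cox6b1 (0.0432) passed with the GC and length trends removed.

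Of the 9 assembly genes with Cox names, Cox16 and Cox20 fell, 0 rose by limma (1, Cox17, was higher at an unadjusted p below 0.05) and 7 did not pass. Over all tested genes, 17.8% fell. The 9 genes had a median log2 fold change of 0.019 (-0.082 without NaCl replicate 2 and -0.0042 without itaconate replicate 1). Cox16 and Cox20 are known to act on the mitochondrially encoded subunit COX2, Cox20 as a chaperone of the new protein and Cox16 in the maturation of its copper center. Cox16 (chr12:81359026-81485127, minus strand) had normalized counts of 310.2, 295 and 326 with itaconate and 497, 569.7 and 519 with NaCl. The groups were well apart, with means of 310.3 ± 15.5 and 529 ± 37.3 (SD, n = 3; adjusted p = 6.97e-04, log2 fold change -0.77 with an SE of 0.13), and the call held in all 18 alternatives. Gm20498 lies on the same strand over 56.8% of the Cox16 exons and holds 75.7% of its 31-base sequences, so reads could be divided between them. It had 114 ± 18.6 with itaconate and 88.5 ± 36.9 with NaCl (adjusted p = 0.283), and with both summed the log2 fold change was -0.54 (SE 0.12, adjusted p = 0.00315).

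Cox20 (chr1:178319130-178322693, plus strand) had 192, 169.5 and 179.8 with itaconate and 257, 259 and 250.4 with NaCl, with no overlap (adjusted p = 0.0265, log2 fold change -0.50 with an SE of 0.16). Exons of Hnrnpu, an abundant RNA-binding protein gene on the opposite strand, overlap 91.1% of the exons of Cox20. Hnrnpu itself fell from 14511 ± 304 to 9862 ± 811 (adjusted p = 2.85e-04, log2 fold change -0.56 with an SE of 0.084), and the reads of the pair cannot be told apart without the strand setting. The Cox20 call was lost without itaconate replicate 2 (adjusted p = 0.0861), without NaCl replicate 1 (0.0652), 2 (0.0756) or 3 (0.0636) and with the GC and length trends removed (0.119).

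The copper chaperone gene Cox17, with the largest normalized count of the assembly genes, had 1763, 1526 and 1319 with itaconate and 1245, 1044 and 1372 with NaCl. The ranges overlapped and the difference did not pass (adjusted p = 0.0634, log2 fold change 0.33 with an SE of 0.13). It passed without itaconate replicate 3 (0.0171) or NaCl replicate 3 (0.0454) and with the GC and length trends removed (0.0276). The heme A enzymes Cox10 and Cox15, the copper delivery genes Cox11 and Cox19, and Cox14 and Cox18, which serve COX1 and COX2, had log2 fold changes from -0.084 (Cox18) to 0.16 (Cox10).

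In complex V, 1 of 17 genes rose (Atp5h), 1 fell (Atp5g1) and 15 did not pass. The median log2 fold change was 0.032 (-0.021 without NaCl replicate 2), and the groups were apart for 3 (1 above, 2 below). Over all tested genes, 36.0% were called and the groups were apart for 48.4%. Atp5h (chr11:115415689-115419962, minus strand), the d subunit of the stalk that holds the catalytic head in place, had normalized counts of 2918, 2763 and 2535 with itaconate and 2228, 2325 and 2337 with NaCl. The itaconate values were all higher, by 1.19-fold in the fit (adjusted p = 0.0403, log2 fold change 0.25 with an SE of 0.088). The call was lost without itaconate replicate 1 (adjusted p = 0.137) or 2 (0.117), without NaCl replicate 1 (0.105), 2 (0.0812) or 3 (0.0736), with no filter (0.0584), quantile normalization (0.0604) and no intensity trend (0.0936). Atp5g1 (chr11:96068852-96075670, minus strand), 1 of 3 genes for the c subunit of the proton-driven ring, had 1336, 1218 and 1126 with itaconate and 1709, 1380.0 and 1632 with NaCl. The itaconate values were all lower (adjusted p = 0.0236, log2 fold change -0.36 with an SE of 0.11). That call was lost without itaconate replicate 2 (0.0726) or 3 (0.0638), without NaCl replicate 1 (0.0913) or 3 (0.081) and with no intensity trend (0.0821).

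The catalytic head of complex V did not pass in any of its 5 genes. Atp5b, the catalytic beta subunit and the member with the largest normalized count of all 51, had 23631, 21418 and 19749.5 with itaconate and 25503, 21352 and 22545 with NaCl, overlapping ranges (adjusted p = 0.458, log2 fold change -0.099 with an SE of 0.097). For Atp5a1 (alpha), Atp5c1 (gamma), Atp5d (delta) and Atp5e (epsilon), log2 fold changes ran from 0.012 to 0.23, the last with an adjusted p of 0.0669. Atp5c1 passed without itaconate replicate 3 (0.0217) or NaCl replicate 1 (0.0477) and with the GC and length trends removed (0.0073), and Atp5a1 passed with quantile normalization (0.0424). Atp5g2, another c subunit gene, was below NaCl in every itaconate library without passing (log2 fold change -0.18, adjusted p = 0.0879). Atp5g3, the stalk genes Atp5o, Atp5pb and Atp5j, and the membrane genes Atp5j2, Atp5k, Atp5l, Atp5md and Atp5mpl ranged from -0.27 (Atp5md) to 0.26 (Atp5mpl). Of these, Atp5mpl passed without itaconate replicate 3 (0.00513), Atp5md without itaconate replicate 1 (0.0411), and Atp5j2 without NaCl replicate 3 (0.0432) and with the GC and length trends removed (0.0324).

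Here levels are compared between genes as normalized counts per kilobase of transcript, whereas the largest normalized counts named above were not divided by length. With NaCl, the 5 highest were Atp5b (12074 ± 1115, SD, n = 3), Atp5g2 (10497 ± 328), Cox4i1 (7816 ± 535), Cox8a (6811 ± 703) and Atp5a1 (6212 ± 245). The intervals of mean ± SD overlapped for Cox4i1 and Cox8a and for Cox8a and Atp5a1, but not for Atp5b and Atp5g2 or for Atp5g2 and Cox4i1. In complex III, Uqcrh was highest in both groups, at 4477 ± 294 with NaCl and 6001 ± 438 with itaconate. Uqcrq stood second in that complex with NaCl (3616 ± 449) and lay among the middle genes with itaconate (1723 ± 62.4). Assembly genes were lower than most subunits, from 116 ± 14.3 (Cox19) to 1270.4 ± 153 (Cox14) with NaCl, and the muscle, lung and testis isoforms lay in the same low range or below it, from 39.8 ± 10.9 (Cox4i2) to 200.4 ± 70.4 (Cox6a2).

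In the families of Cox4i1, Cox6a1 and Cox6b1, these common isoforms kept the bulk of the transcripts in both groups. The log2 ratio of paralogs was formed within each library for 9 pairs and compared by a two-sided exact permutation test, which with 3 against 3 cannot go below p = 0.1. The groups did not overlap for 6 pairs (exact p = 0.1 each, 0.15 adjusted over the pairs), and for 4 of the 7 pairs without Cox7a1. Taken singly, 48.4% of all tested genes had groups apart, and no such share was computed for ratios. Several pairs share a gene, so the pairs are not independent. Per transcript length, Cox7a1 made up 0.221% ± 0.0658 (SD, n = 3) of the 3 Cox7a genes with itaconate and 0.964% ± 0.251 with NaCl. Cox7a2l made up 76.3% ± 1.22 and 72.5% ± 0.949, and Cox7a2 23.5% ± 1.29 and 26.5% ± 0.792. The log2 ratio of Cox7a2l to Cox7a2 was higher by 0.25 with itaconate. Cox6a2 made up 1.39% ± 0.961 of the Cox6a pair with itaconate and 3.40% ± 1.08 with NaCl.

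The 3 c subunit genes encode the same mature protein with different import signals, and their shares differed by a few percentage points between the groups. Atp5g2 made up 68.4% ± 0.969 with itaconate and 71.6% ± 1.73 with NaCl, Atp5g3 28.2% ± 0.702 and 24.3% ± 1.47, and Atp5g1 3.39% ± 0.272 and 4.01% ± 0.327. These shares depend on the transcript lengths used, 2675.5 bases for Atp5g1, 586 for Atp5g2 and 718.5 for Atp5g3. Without division by length, mean normalized counts were 1227 with itaconate and 1574 with NaCl for Atp5g1. They were 5424 and 6151 for Atp5g2, and 2746 and 2569 for Atp5g3. In every itaconate library Atp5g3 was higher relative to both others, by 0.46 over Atp5g1 on the log2 scale. The log2 ratio of Atp5g2 to Atp5g3 differed by -0.28. The pairs Cox4i1 and Cox4i2 (0.58, exact p = 0.2), Cox6b1 and Cox6b2 (-0.40, exact p = 0.4) and Atp5g2 and Atp5g1 (0.17, exact p = 0.2) overlapped between groups. Atp5g2 shares 37.5% of its 31-base sequences with the pseudogene Gm10175, so its share is uncertain.

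**Figure D3:**
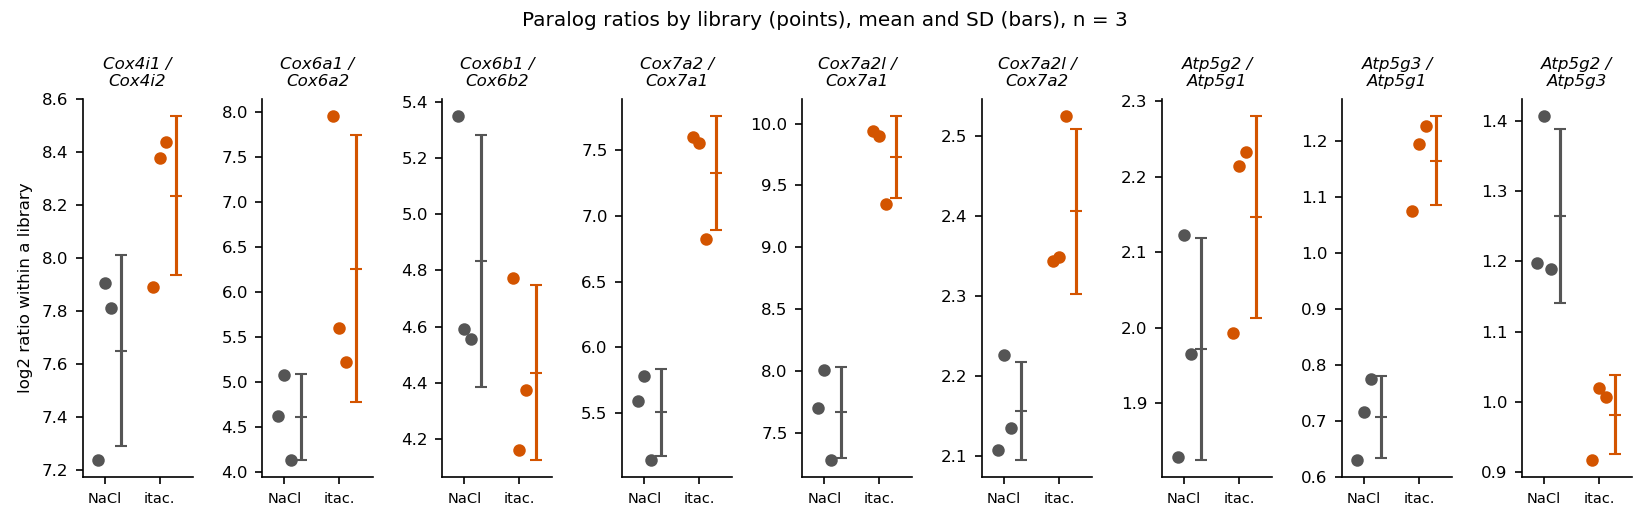
Log2 ratio of normalized counts within each library for the 9 paralog pairs, with the 3 NaCl libraries in grey and the 3 itaconate libraries in orange, each with its mean and SD, on an axis of its own per pair. The groups are apart for 6 pairs, by most for the pairs with Cox7a1, and overlap for Cox4i1 with Cox4i2, Cox6b1 with Cox6b2, and Atp5g2 with Atp5g1.

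The mitochondrial genome encodes the partners of these proteins, and 5 of its 6 genes in complexes III, IV and V fell while most nuclear members did not pass. Of all tested genes, 17.8% fell. Cytochrome b (mt-Cytb), the core of complex III, had normalized counts of 3125, 3647 and 4918 with itaconate and 22506, 19228 and 21370.1 with NaCl. It was 5.48-fold lower (adjusted p = 2.29e-07, log2 fold change -2.46 with an SE of 0.14), with no overlap. Of the complex IV core, mt-Co1 did not pass (log2 fold change 0.11, adjusted p = 0.407), mt-Co2 fell by 0.35 (SE 0.09, adjusted p = 0.00973) and mt-Co3 fell by 0.50 (SE 0.097, adjusted p = 0.00156) on the log2 scale. Both complex V genes fell, mt-Atp6 by 0.80 (SE 0.089, adjusted p = 3.57e-05) and mt-Atp8 by 0.99 (SE 0.19, adjusted p = 0.00154). In complex III the nuclear gene Uqcrq and the mitochondrial gene mt-Cytb were both lower. The other 8 nuclear genes had positive log2 fold changes, but of these only Uqcrh passed. Those of Cyc1, Uqcrc1, Uqcr11, Uqcr10 and Uqcrb changed sign in some alternatives. Nuclear copies hold nearly all 31-base sequences of mt-Atp6, mt-Co2 and mt-Co3. The mt-Co2 copy Gm28661 had means of 24066 with itaconate and 32122 with NaCl, above those of mt-Co2 itself (8358 and 10575). For mt-Co1, the copies Gm13340 and Gm29216 hold 45.2% and 29.6%. The mt-Co2 call was lost without itaconate replicate 2 (0.0605), with quantile normalization (0.104), with no intensity trend (0.0611) and with the GC and length trends removed (0.266). With copies summed, the log2 fold changes of mt-Atp6, mt-Co2 and mt-Co3 were -0.84, -0.40 and -0.52, and that of mt-Co1 was 0.12.

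**Figure D4:**
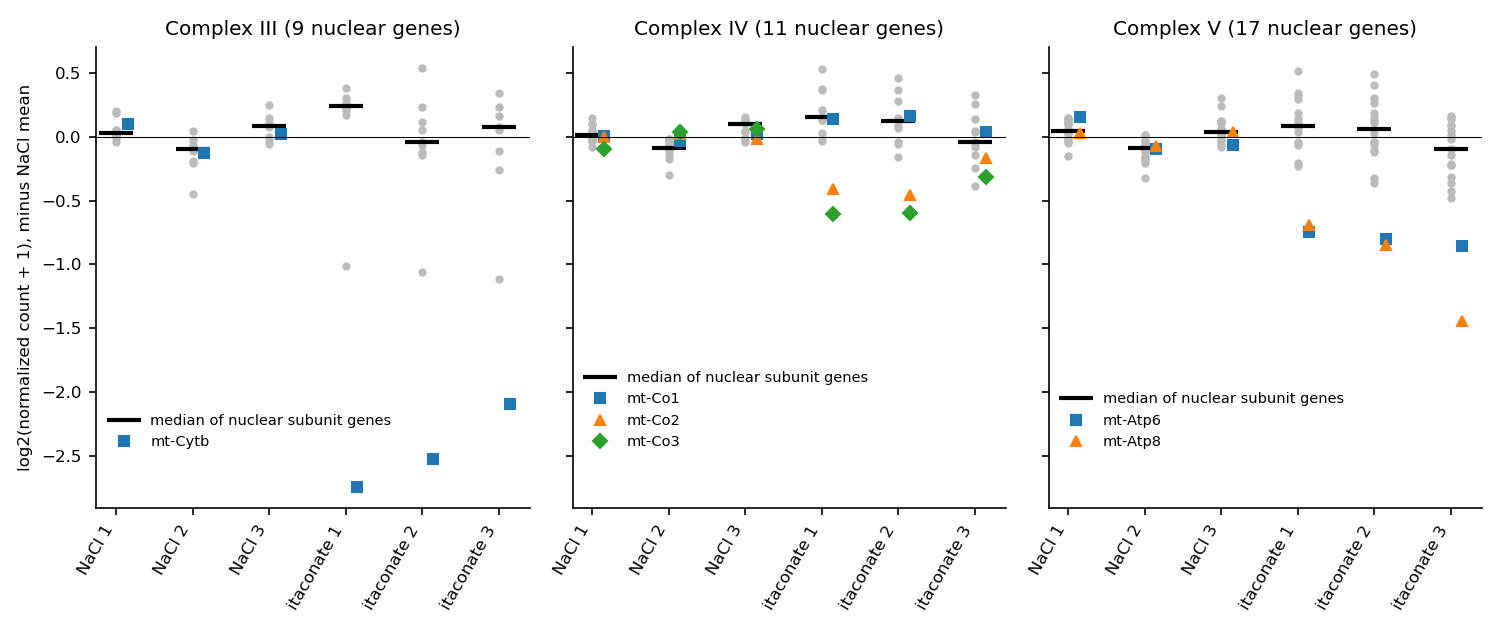
Level of each gene in each library as the log2 difference from its NaCl mean, for nuclear subunit genes with a mean of at least 100 (grey points, black bar at their median) and mitochondrially encoded genes (coloured marks), 1 panel per complex. In the itaconate libraries mt-Cytb, mt-Co2, mt-Co3, mt-Atp6 and mt-Atp8 lie below 0. In itaconate replicates 1, 2 and 3 the nuclear median of complex III lies at 0.24, -0.040 and 0.075. That of complex V lies at 0.083, 0.062 and -0.092.

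Among assembly factors and associated proteins with other names, 6 of 29 measured fell (20.7%, where 17.8% of all tested genes fell) and 0 rose by limma (1, Atpif1, was higher at an unadjusted p below 0.05). The other 23 did not pass. The groups were apart for 8 of the 29 (for 48.4% over all tested genes). Their median log2 fold change was -0.23, and 23 were negative, as were 50.1% of all tested genes. For complex III, Lyrm7, the chaperone that delivers the Rieske protein, was the 1 of 6 that fell. Its normalized counts were 36.5, 45.1 and 47.2 with itaconate and 70.4, 138 and 109 with NaCl (adjusted p = 0.0072, log2 fold change -1.24 with an SE of 0.31), while its client Uqcrfs1 lay above NaCl. For complex IV, 4 of 18 fell: the respirasome-associated Higd1a (adjusted p = 2.29e-07, log2 fold change -1.80 with an SE of 0.099), Coa4 (log2 fold change -1.07, adjusted p = 0.0043), Pet100 (-0.71, 0.0231) and the copper chaperone Sco1 (-0.69, 0.00115). The Pet100 call was lost without itaconate replicate 1 (0.0748) or 2 (0.053), without NaCl replicate 1 (0.0697) or 2 (0.0745) and with no filter (0.0523). For complex V, Atpaf2, which assembles the alpha subunit into the head, was the 1 of 5 that fell (adjusted p = 0.00537, log2 fold change -0.53 with an SE of 0.12).

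Of the carriers that feed complex V, 2 of 3 measured rose, where 18.2% of all tested genes rose. Slc25a3, the phosphate carrier, had 16788, 17402 and 15598 with itaconate and 12755, 11635 and 11465 with NaCl (adjusted p = 8.83e-04, log2 fold change 0.47 with an SE of 0.083). Slc25a5, the ADP/ATP exchanger of dividing cells, also passed (adjusted p = 0.0292, log2 fold change 0.39 with an SE of 0.13), though its groups overlapped, and that call was lost without itaconate replicate 1 (0.11) or 2 (0.0918), without NaCl replicate 2 (0.117) or 3 (0.118), with no filter (0.0525) and with no intensity trend (0.136). Of complex II, the target of itaconate, the iron-sulfur subunit Sdhb rose (log2 fold change 0.32, adjusted p = 0.0183) and the other 3 genes did not pass. The Sdhb call was lost without itaconate replicate 1 (0.0748), without NaCl replicate 2 (0.0702) or 3 (0.06) and with no intensity trend (0.0637). Of 3 measured genes of cytochrome c handling, 0 passed by limma, and 0 had an unadjusted p below 0.05.

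Among 11 measured regulators of nuclear respiratory genes, 2 rose and 1 fell, where 18.2% of all tested genes rose and 17.8% fell. The coactivator gene Ppargc1b had 112, 72.0 and 90.3 with itaconate and 38.8, 49.2 and 25.4 with NaCl (adjusted p = 0.00861, log2 fold change 1.28 with an SE of 0.33). The general activator Sp1 rose as well (log2 fold change 0.48, adjusted p = 0.00542), and Gabpb2, a partner subunit of GABP, fell (-0.43, 0.00697). With no intensity trend neither passed (0.0556 for Sp1 and 0.059 for Gabpb2), nor did Sp1 with the GC and length trends removed (0.0515). Without itaconate replicate 3, 4 regulators rose, and without NaCl replicate 1 or 3, 2 fell. Of 4 measured supercomplex and hypoxia-linked genes, Higd1a and the mitochondrial protease gene Lonp1 (-0.81, 9.28e-06) fell and Cox7a2l rose. Of 37 nuclear genes named as complex I subunits (Ndufa4, a complex IV protein counted above as well, is among them), 1 rose and 6 fell. Over all tested genes, 18.2% rose and 17.8% fell. The 37 genes had a median log2 fold change of -0.048. Without NaCl replicate 3, 3 of them fell, and without itaconate replicate 3, 2 rose.

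**Figure D5:**
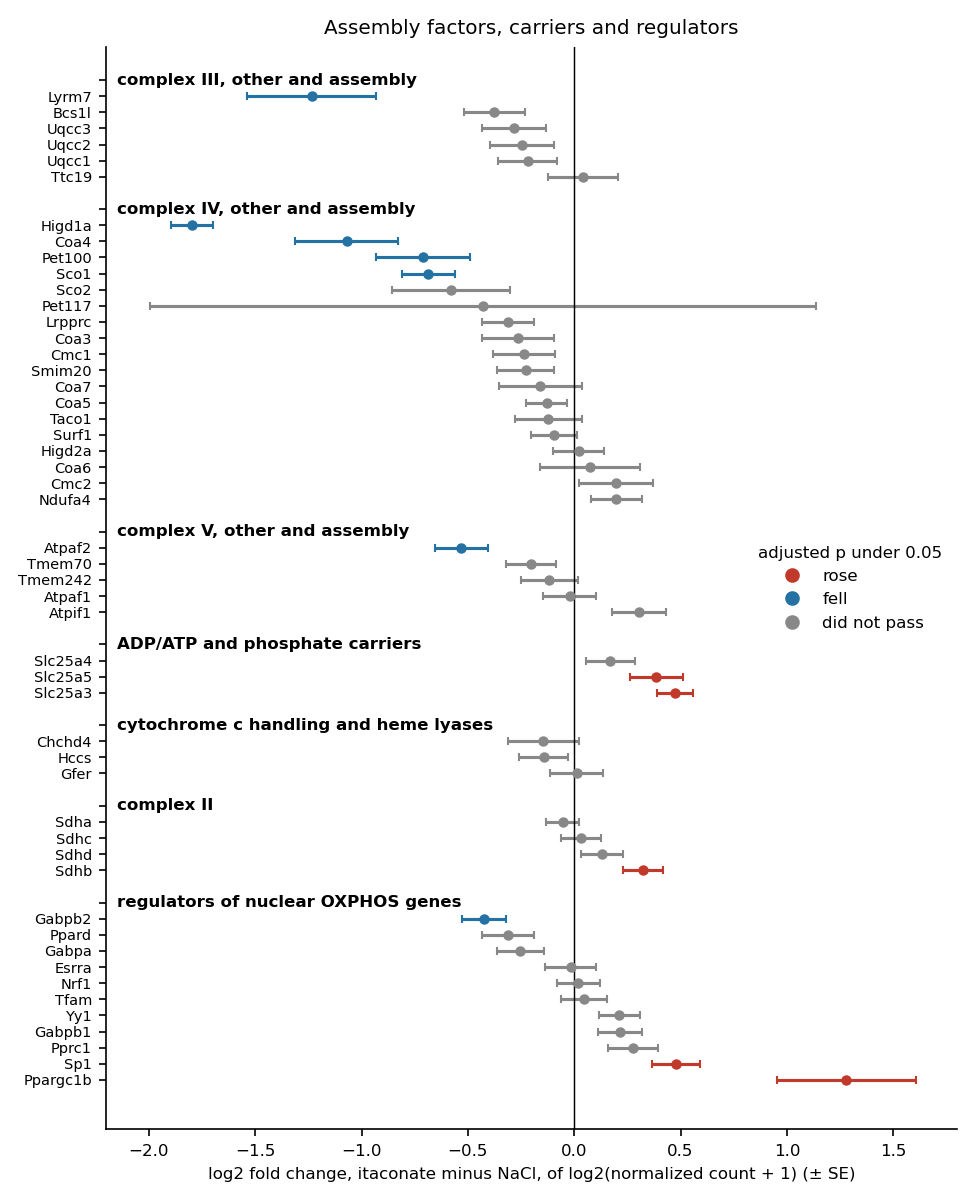
Log2 fold changes with standard errors for the assembly factors, carriers, complex II genes and regulators, in red (rose) or blue (fell) where the test was passed and grey where not. The assembly factors that passed all lie below 0, with Higd1a lowest at -1.80, and the carriers that passed lie above it.

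The members also varied together within groups. Among the 47 members with a mean of at least 100, NaCl replicate 2 was below its group's mean in 41, itaconate replicate 3 in 36, and itaconate replicate 1 was above its group's mean in 37. Median deviations were small, from -0.091 (NaCl replicate 2) to 0.083 (itaconate replicate 1) on the log2 scale. The largest of these shifts exceeded the members' median log2 fold change in size. Calls lost or gained without a library are given beside the genes.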

How the data were processed

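The samples were 6 RNA-seq libraries of mouse CD4+ T cells, 3 per treatment, grouped by their titles, with the table's columns matched by treatment code (NAC read as NaCl) and replicate number. The authors deposited 1 table of normalized estimated counts per gene, an expression signal. STAR 2.7.0f, RSEM 1.3.0 and the mm10 build were used, per the submitters' processing notes. No source used here gives the annotation, scaling tool or strand setting. With the most frequent positive value of a library taken as 1 read, 79.9% to 82.2% of values were whole reads (within 0.02). Nearly all (99.99% to 100%) fell on hundredths of a read. The values were thus estimated counts with fractions, and no count model was used. With values rescaled to reads and rounded, replicates of a group differed by 12.8 to 25.7 in chi-square per degree of freedom, more than sampling noise for every pair.

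Values were taken as log2(value + 1) for the 13180 of 55401 entries with a mean of at least 10 and compared two-sided with limma 3.58.1 (R 4.3.3), using an intensity trend and no covariate. P-values were adjusted by Benjamini-Hochberg over all these genes, with a threshold of 0.05. A fold change on the log2(value + 1) scale understates the change of low genes, and normalized values cannot show a change shared by most genes. Positions, transcript lengths (median of the APPRIS principal transcripts), exon overlaps and shared sequences of 31 bases came from GENCODE release M21 (GRCm38), and promoters from RefSeq. Every member that passed is named, and the 3 with the smallest p per class and direction and the highest of each class are given in every library. In other lists every gene that passed is named, except for complex I. Members and lists were chosen with earlier results of these data known, and are not independent evidence. Alternatives were a pseudocount of 0.1 or 10, a mean of at least 100 or no filter, median-ratio and TMM factors, quantile normalization, a replicate block, no trend, robust variances, removal of GC and length trends, each library left out, and, chosen after seeing the data, near-identical copies summed.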

Additional observations from a re-analysis of the deposited data

How the results depend on the processing

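The calls of Uqcrq, Uqcrh, Cox16 and Cox6c held in all 18 alternatives. Over the genes, counts and medians compared, 1359 values kept their direction and side of the threshold or stayed near the reported one, 86 counts or medians moved, 56 calls were lost, 13 were gained and 14 values changed sign. Over all 51 members there were 40 sign changes among 914 values, in 20 members, none of them called. The cause of each change below was not tested. With the GC and length trends removed, 11 members rose (complex III 3, complex IV subunits 4, complex IV assembly 1, complex V 3) and the median log2 fold change was 0.13 over all members and 0.18 over complex IV subunits. There 1 complex IV subunit and 1 complex IV assembly gene fell, 1 assembly factor each of the complex IV and V lists rose, 1 regulator rose and 2 fell, and 3 complex I genes rose. With no filter 2 members rose (complex IV subunits 1, complex V 0), 1 complex IV subunit fell and 1 carrier rose. With no intensity trend, 2 members rose (complex IV subunits 1, complex V 0), 1 complex IV subunit and 0 complex V genes fell, 2 complex III assembly factors fell, 1 carrier, 0 complex II genes and 1 regulator rose, and 0 regulators fell. A mean of at least 100 left 0 complex IV subunits and 0 complex III assembly factors that fell and 1 regulator that rose. It gave no value for Cox7a1, Cox6a2, Cox6b2, Cox4i2, Lyrm7 and Ppargc1b, which lie below it, so these were not tested there. Quantile normalization left 1 complex IV subunit that fell and gave 2 regulators that fell, and robust variances left 1 complex IV subunit that fell. Over all tested genes, calls ranged from 3478 (without itaconate replicate 2) to 5636.

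Small fold changes changed sign: Atp5b to 0.083, Cox7a2 to -0.028 and Cox14 to -0.0053 with quantile normalization, and Cox4i1 to 0.0037 and Cox15 to -0.013 with the GC and length trends removed. Leaving out 1 library turned Cox4i1 (without NaCl replicate 3, range -0.089 to 0.0086), Cox7a2 (without itaconate 2, NaCl 1 or NaCl 2, range -0.049 to 0.075), Uqcrc1 (without itaconate 1, range -0.021 to 0.14), Cox14 (without itaconate 3 or NaCl 2, range -0.082 to 0.089) and Atp5a1 (without itaconate 1 or NaCl 2, range -0.024 to 0.048). With each library left out in turn, 2 to 7 members rose and 2 to 6 fell. Those that rose were 1 to 2 complex IV subunits, 0 to 1 complex IV assembly genes, 0 to 3 complex V genes, 0 to 1 complex V assembly factors, 1 to 2 carriers, 0 to 1 complex II genes, 2 to 4 regulators and 1 to 2 complex I subunits. Those that fell were 0 to 2 complex IV subunits, 1 to 2 complex IV assembly genes, 0 to 2 complex V genes, 1 to 2 regulators and 3 to 7 complex I subunits. Median log2 fold changes ran from 0.032 to 0.14 for complex IV subunits, -0.082 to 0.082 for complex IV assembly genes, 0.0019 to 0.14 for complex III, -0.021 to 0.098 for complex V and -0.0045 to 0.085 for all members.

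The groups share replicate numbers, for which the labels name neither mouse nor day. Deviations of same-numbered libraries correlated at 0.15, 0.038 and 0.13 across genes, so the pairing was not taken as given, although every library correlated best with its own number. With the replicate number as a block, Uqcrfs1 (adjusted p = 0.0297), Cox17 (0.0361) and Atp5c1 (0.0188) also rose and Atp5g2 (0.0484) and Atp5md (0.0416) also fell, so that 7 members rose (complex III 2, complex IV assembly 1, complex V 2), 3 complex V genes fell, 1 complex V assembly factor rose, 5 regulators rose and 3 fell, and 2 complex I genes rose, of 5636 genes called in all.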

Other observations

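Of the 51 members, 17 share at least 10% of their 31-base sequences with another annotated gene, mostly processed pseudogenes. For the called genes, summing with the copies gave log2 fold changes of 0.42 (adjusted p = 0.00328) for Uqcrh, 0.25 (0.0418) for Atp5h, 0.42 (0.00514) for Cox6c and 0.26 (0.0372) for Cox7a2l by limma.

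Cox11, which did not pass, shares 48.3% of its exon bases with the opposite-strand gene Tom1l1. Atp5j shares 12.7% with Gabpa, the DNA-binding subunit of GABP.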
